A study of Mus musculus with 7 samples.

Results

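Neuronal cytoskeleton and growth cone genes were compared between Pomc and Npy neurons of the embryonic mouse hypothalamus. The set consists of 10 genes found by symbol, and all 10 are among the 18335 rows of the deposited table. They are Tubb3 (a beta tubulin of neurons), Stmn2 and Stmn3 (stathmins), Dcx, Map2 and Mapt (microtubule-associated proteins), Gap43 (a growth cone protein) and Nefl, Nefm and Ina (neuronal intermediate filaments). The set was chosen for the function of its genes, at a time when other results of these data were known.

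The study took arcuate nuclei of mouse embryos at E15.5, dissociated them and sorted 2 kinds of neurons by fluorescence. Pomc neurons make pro-opiomelanocortin, from which hormones that curb appetite are cut, and the product of Npy neurons is neuropeptide Y, a peptide that drives feeding. Age and tissue were the same in all samples. The sources used here give no treatment, strain, genotype or reporter, and do not say whether replicates came from separate embryos, litters or pools. The p-values therefore cover the spread among these libraries, which can be technical. The labels give 4 Pomc and 3 Npy libraries, each from 1 ng of total RNA. Npy replicate 3 was left out as no separate measurement, because in all 15223 genes with a value its column is a whole percentage, 95 to 105, of the average of both other Npy columns (within 1e-04 percentage points). Hence 4 Pomc libraries stand against 2 Npy libraries.

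Microtubules are hollow polymers of alpha and beta tubulin that grow and shrink at their ends. Stathmins bind free tubulin and promote disassembly, whereas Map2, tau (the product of Mapt) and doublecortin bind the polymer and stabilise it. Tau is best known from axons and Map2 from dendrites and cell bodies. Gap43 lies under the membrane of the growth cone, the motile tip of a growing axon. Neurofilaments and alpha-internexin, the product of Ina, form the intermediate filaments of axons, with alpha-internexin known as the early partner in developing neurons. Young neurons that have left the cell cycle turn on most of these genes, and they are used as general markers of neuronal differentiation.

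The deposited values were taken as TPM (transcripts in each 1000000), a level per gene length. Each of the 6 columns used sums to 1000000, and each had 12493 to 14933 genes above 0. Sequencing depth is not given in TPM. Short RNA genes took 9.40 to 12.1% of the Pomc libraries and 13.1 and 15.8% of the Npy libraries, so this share differed with the groups. The sort markers differed in the labelled direction. Pomc stood at 518 ± 189 TPM (SD, n = 4) against 24.0 and 59.4 TPM, and passed (limma adjusted p = 0.00454). Npy stood at 2.11 to 152 TPM against 728 and 513 TPM, lower in every Pomc library, and did not pass (limma adjusted p = 0.418). Summed over 7 neuron markers such as Snap25 and Elavl3, the level was 1391 to 1561 TPM in the Pomc libraries and 1588 and 1322 TPM in the Npy libraries, and the groups overlapped. The 6 markers of oligodendrocyte precursors summed to 0.444 to 2.64 TPM in the Pomc libraries and to 228 and 207 TPM in the Npy libraries. Olig2 and Cspg4 were listed at 0 in all 4 Pomc libraries. All 6 markers passed as higher in the Npy libraries, as did 0.123% of all genes tested. These calls were unstable, though every marker tested had a log2 difference below 0 in every setting. Of the 6, 1 passed with a pseudocount of 0.1 or without Pomc replicate 1, and 2 without Pomc replicate 2 or Pomc replicate 3. With a replicate block 0 passed. In it Pomc replicates 3 and 4 have no Npy partner of the same number and do not bear on the difference. Without Npy replicate 1 or Npy replicate 2, 1 of the 6 met the filter. The other markers reach 1 TPM in no Pomc library, so these fits cannot speak to their calls. The 7 markers of radial glia and astrocytes summed to 27.1 to 103 TPM against 381 and 226 TPM, of which Fabp7 alone gave 323 and 176 TPM, and the 6 markers of dividing cells to 5.93 to 28.0 TPM against 96.2 and 61.2 TPM. No marker of these 2 lists passed. In the radial glia list the groups stood apart, with Npy above, in 2 of 6 tested genes (Fabp7 and Hes5), and in the dividing cell list in 3 of 6. This was the case in 7.86% of all genes tested. Aldh1l1 and Aqp4, the latter not tested, had higher means in the Pomc libraries (0.702 and 0.333 TPM against 0.494 and 0.214 TPM). These summed levels of non-neuronal markers ran with the groups, and their part in the differences below was not tested. In bulk samples, fewer cells of a type and less RNA per cell cannot be told apart. Microglia markers summed to at most 2.27 TPM except in Pomc replicate 4 (42.3 TPM, with P2ry12 at 22.7 TPM). The 5 red blood cell markers summed to 36.0 and 88.8 TPM in Pomc replicates 2 and 4 and to at most 1.44 TPM elsewhere. Endothelial markers reached at most 10.7 TPM and fibroblast markers at most 10.2 TPM.

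Promoter windows were looked up in RefSeq (GRCm38.p6, 250 bases before to 50 after the start of the gene, read on its strand). Of the 10 genes, 5 matched: Tubb3, Stmn3, Map2, Ina and Dcx, the last with 2 windows. The windows of Tubb3 (chr8:123411303-123411602, plus strand), Ina (chr19:47014431-47014730, plus strand) and Stmn3 (chr2:181314451-181314750, minus strand) are shown, because these 3 of the 5 were higher in every Pomc library than in both Npy libraries. Capitals mark matches to any of 5 motifs, searched on both strands: the E-box CAGCTG, the GC box GGGCGG, the CCAAT box CCAAT, the TATA box TATAAA and the cyclic AMP response element TGACGTCA. No match overlapped another in these windows.
Tubb3: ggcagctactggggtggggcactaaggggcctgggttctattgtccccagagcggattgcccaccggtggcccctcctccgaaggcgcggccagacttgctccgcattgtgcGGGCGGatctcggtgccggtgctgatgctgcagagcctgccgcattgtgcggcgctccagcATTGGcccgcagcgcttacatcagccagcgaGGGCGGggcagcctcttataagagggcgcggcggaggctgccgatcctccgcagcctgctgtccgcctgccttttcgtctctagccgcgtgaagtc
Ina: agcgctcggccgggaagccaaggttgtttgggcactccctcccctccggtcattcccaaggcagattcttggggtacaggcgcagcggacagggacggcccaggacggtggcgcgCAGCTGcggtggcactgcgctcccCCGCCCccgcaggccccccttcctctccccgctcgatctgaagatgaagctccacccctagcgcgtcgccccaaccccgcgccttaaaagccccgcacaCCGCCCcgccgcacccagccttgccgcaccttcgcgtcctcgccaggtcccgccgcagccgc
Stmn3: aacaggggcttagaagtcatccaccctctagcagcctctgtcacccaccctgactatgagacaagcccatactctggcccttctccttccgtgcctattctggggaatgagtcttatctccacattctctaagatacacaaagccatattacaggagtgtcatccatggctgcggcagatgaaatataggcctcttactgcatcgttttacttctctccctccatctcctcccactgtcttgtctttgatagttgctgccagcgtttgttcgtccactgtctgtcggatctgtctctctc

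The windows of Tubb3 and Ina were rich in G and C and held GC boxes, and that of Stmn3 held none. That of Tubb3 held 2 GC boxes and 1 CCAAT box in reverse (67.3% G and C), that of Ina 2 GC boxes in reverse and 1 E-box (71.7%), and that of Stmn3 none of the 5 motifs (49.7%). The window of Map2 held 5 GC boxes (77.7% G and C), and both overlapping windows of Dcx held 1 CCAAT box and 1 TATA box. Among all 32817 different windows of this length, 35.6% held the GC box, 37.4% the CCAAT box, 16.3% the E-box, 13.6% the TATA box and 1.79% the cyclic AMP response element, and their median content of G and C was 52.7%. A match describes these letters only.

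All 10 genes met the filter of 1 TPM in at least 2 libraries and were tested. None passed an adjusted p of 0.05 (limma on log2(TPM + 1), Benjamini-Hochberg over 13845 genes), a threshold passed by 0.412% of all genes tested, 0.289% with higher levels in Pomc and 0.123% with higher levels in Npy neurons. The counts by direction were unstable: 40 and 17 genes passed, against 29 and 8 with a pseudocount of 0.1 and 20 and 9 without Pomc replicate 3. With 1 Npy library left, genes near 0 in the Pomc libraries cannot meet the filter. Such fits therefore cannot judge the count higher in Npy neurons. At an unadjusted p under 0.05 there were 3 (Stmn2, Tubb3 and Ina), or 30.0%, all higher in Pomc neurons. Among all genes 7.36% had such a p, and 4.08% had one with higher levels in Pomc neurons. The count of 3 was not stable, since it was 1 of 10 in 10 of 16 other settings, among them leaving out Pomc replicate 1, Pomc replicate 3 or Npy replicate 2. All 10 had log2 differences (Pomc minus Npy) above 0, as did 51.3% of all genes. Their median was 0.45 and that of all genes was 0.02. In 5 of 10 (Tubb3, Stmn2, Stmn3, Mapt and Ina) every Pomc library lay above both Npy libraries, which was the case in 8.05% of all genes tested. These counts describe a set whose genes share function, cell type and libraries, and are not a test of it.

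**Figure D1:**
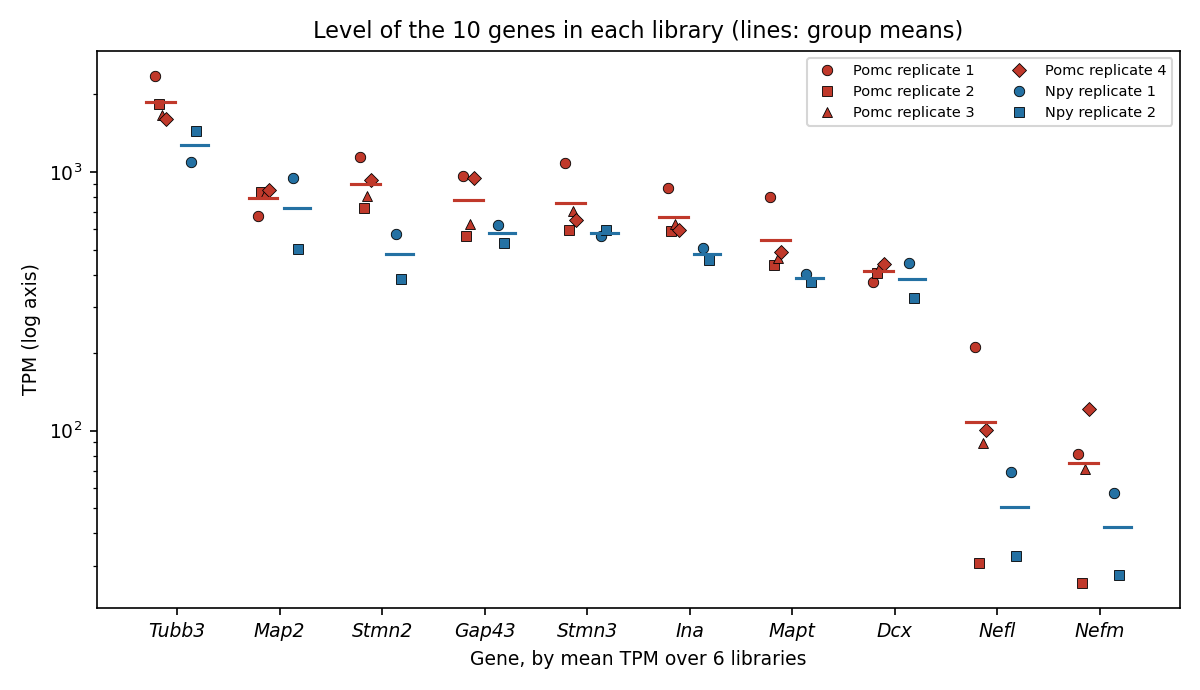
TPM of each of the 10 genes (log axis) in the 4 Pomc libraries (red) and the 2 Npy libraries (blue), 1 point per library, with group means as lines. Tubb3 is the highest in every library, 8 genes lie between 324 and 2346 TPM, and Nefl and Nefm lie between 25.9 and 211 TPM.

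Most of the 10 genes were among the highest in the table. By mean TPM over the 6 libraries, Tubb3 was 36th of 13845 genes tested, Map2 105th, Stmn2 111th, Gap43 125th, Stmn3 130th, Ina 151st, Mapt 210th and Dcx 280th. Nefl and Nefm were lower, at places 2389 and 3396. In the Pomc libraries the order by mean level was Tubb3, Stmn2, Map2, Gap43, Stmn3, Ina, Mapt, Dcx, Nefl and Nefm. The neighbours Stmn2 and Map2, and Map2 and Gap43, changed places between libraries (each ahead in 2 of 4), Gap43 stood above Stmn3 in 1 of 4, and Nefl above Nefm in 3 of 4. Each of the other 5 neighbours kept its order in 4 of 4. In the Npy libraries Stmn2 stood sixth, at a mean of 480.0 TPM, close to Ina at 482 TPM. Summed over the 10 genes, the level was 8541, 6051, 6309 and 6738 TPM in Pomc replicates 1 to 4 and 5284 and 4674 TPM in Npy replicates 1 and 2. The groups did not overlap in this sum, and with short RNA genes left out it was 6848 to 9427 against 6078 and 5552.

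Tubb3 encodes the beta tubulin that antibodies to neuronal tubulin recognise (chromosome 8, 123411424 to 123422015, GRCm38). It stood at 2346, 1837, 1661 and 1603 TPM in Pomc replicates 1 to 4 and at 1094 and 1439 TPM in Npy replicates 1 and 2. Every Pomc library was above both Npy libraries, and the gap between the lowest Pomc and the higher Npy library was smaller than the gap between the Npy libraries. The log2 difference was 0.55 ± 0.23 (SE), with a 95% interval of 0.03 to 1.07, a 1.47-fold higher estimate in Pomc neurons that did not pass (limma adjusted p = 0.636). Without Npy replicate 1 it was 0.35. As a share of the summed beta tubulins, Tubb3 made up 24.3, 29.8, 25.9 and 24.0% in the Pomc libraries and 21.0 and 22.5% in the Npy libraries. A share within a family does not depend on how a library is scaled. The groups did not overlap in it, and p was 0.133 in a two-sided exact permutation test (0.6 adjusted over the 9 shares examined), where 15 splits cannot give less than 0.0667.

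The other beta tubulins were abundant as well, and near-identical copies make reads of tubulin genes uncertain to assign. Tubb5, found in most dividing and developing cells, stood at 2356 ± 453 TPM (SD, n = 4) in Pomc neurons against 1630 and 2167 TPM (limma adjusted p = 0.841). Tubb2b, a beta tubulin of migrating neurons, stood at 1580 ± 427 TPM against 1225 and 1373 TPM, and Tubb2a at 677 ± 271 TPM against 542 and 520 TPM. None of the 5 tested beta tubulins beside Tubb3 passed, and their median log2 difference was 0.25. Of the 5 tested alpha tubulins none passed either, with Tuba1a, the main alpha tubulin of young neurons, at 3463 ± 622 TPM against 2532 and 3169 TPM. Tuba1b stood at 63.8 ± 24.6 TPM against 35.1 and 37.5 TPM (log2 difference 0.72 ± 0.36, adjusted p = 0.738).

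Stmn2 had the largest log2 difference of the 10 genes in this fit. It encodes superior cervical ganglion protein 10, a membrane-bound stathmin of growth cones (chromosome 3, 8509360 to 8561606). It stood at 1146, 722, 807 and 930.5 TPM in Pomc replicates 1 to 4 and at 574 and 386 TPM in Npy replicates 1 and 2. All Pomc libraries were above both Npy libraries. Its log2 difference of 0.91 ± 0.24 (SE), a 1.88-fold higher estimate with a 95% interval of 1.30-fold to 2.74-fold, did not pass over all genes (limma adjusted p = 0.28). The estimate was 1.20 when Npy replicate 1 was left out (adjusted p = 0.139 by limma) and 0.63 when Npy replicate 2 was (0.999). In each of these fits the Npy group is a single library, assumed to vary like the Pomc libraries.

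Within the stathmins the same gene took a larger share in Pomc neurons. Stmn2 made up 14.0, 14.7, 12.8 and 14.0% of the stathmin total in the Pomc libraries and 9.61 and 6.53% in the Npy libraries. The groups stood apart by more than the range within the Pomc group, and p was 0.0667 in a two-sided exact permutation test, the smallest that 15 splits allow (0.6 adjusted over 9 shares). The share was 4.24 percentage points higher in Pomc neurons without Npy replicate 2 and 7.33 points higher without Npy replicate 1, against 5.78 points with both. The total itself overlapped between the groups, at 4917 to 8198 TPM against 5972 and 5915 TPM.

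Stmn3, a related stathmin of neurons (chromosome 2, 181306459 to 181314500), had 1082, 597, 708 and 653 TPM in Pomc replicates 1 to 4, against 563 and 595 TPM in Npy replicates 1 and 2. The groups were separated only narrowly, by Pomc replicate 2 at 597.2 TPM and Npy replicate 2 at 594.6 TPM. Its log2 difference was 0.35 ± 0.24 (SE, limma adjusted p = 0.815), with a 95% interval of -0.20 to 0.90. The ratio of Stmn2 to Stmn3 was 1.06, 1.21, 1.14 and 1.42 in the Pomc libraries and 1.02 and 0.649 in the Npy libraries. Stmn1, the ubiquitous stathmin and the most abundant of the 4, stood at 4414 ± 866 TPM (SD, n = 4) against 4315 and 4397 TPM, a log2 difference of -0.003 ± 0.28 (adjusted p = 0.999). Stmn4 stood at 448 ± 124 TPM against 520 and 538 TPM (log2 difference -0.28 ± 0.24, adjusted p = 0.855).

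**Figure D2:**
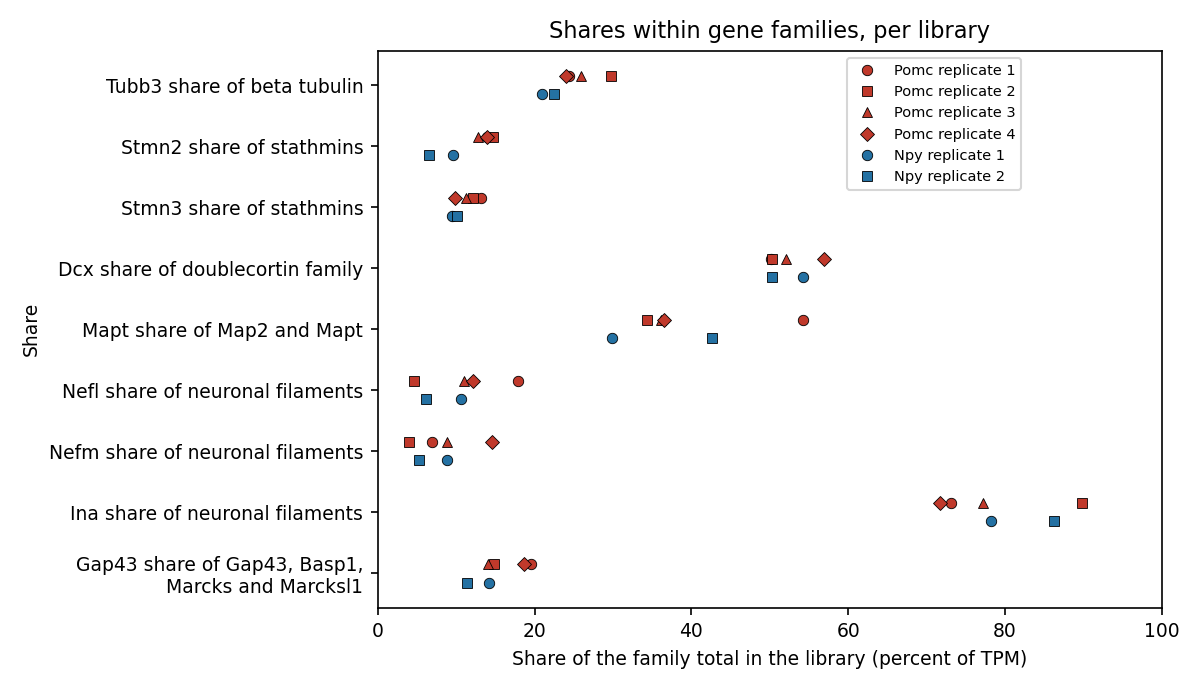
Share of each gene in the summed TPM of its family, in percent, 1 point per library (red for Pomc, blue for Npy). The Pomc and Npy points are apart for Stmn2 among the stathmins (12.8 to 14.7% against 6.53 and 9.61%) and for Tubb3 among the beta tubulins, and they overlap in the other 7 shares.

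None of the 3 genes of microtubule-associated proteins passed, and differences between them were not tested. Dcx encodes doublecortin, which migrating young neurons need (chromosome X, 143855842 to 143933311). Its level was 375, 408, 431 and 441 TPM in Pomc replicates 1 to 4, against 444 and 324 TPM in Npy replicates 1 and 2, so that the Npy libraries lay on both sides of all Pomc libraries. Its log2 difference of 0.12 ± 0.18 (SE, limma adjusted p = 0.912) had a 95% interval of 0.818-fold to 1.45-fold. Dcx made up 50.2 to 56.9% of the doublecortin family total in Pomc neurons and 54.2 and 50.3% in Npy neurons. Its relative Dclk1, a kinase with doublecortin domains, stood at 218 ± 11.3 TPM (SD, n = 4) against 195 and 151 TPM (adjusted p = 0.754).

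Map2 (chromosome 1, 66175273 to 66442583) reached 673, 836, 821 and 852 TPM in Pomc replicates 1 to 4, against 946 and 504 TPM in both Npy libraries. Again the Npy libraries enclosed the Pomc libraries, with Npy replicate 2 at 0.533 times the level of replicate 1. The log2 difference was 0.20 ± 0.25 (SE, limma adjusted p = 0.897, 95% interval -0.37 to 0.77). Without Npy replicate 2 the sign turned for Map2 (-0.26 ± 0.24) and for Dcx (-0.10 ± 0.22). Both have the longest exon sequence of the 10 genes, 16449 and 12647 bases. The difference in log2(TPM + 1), Npy replicate 2 minus replicate 1, was taken for each gene. Over the 2426 tested genes with over 8000 bases of exon sequence its median was -0.37. Over the 2890 genes under 2500 bases it was -0.02. Shorter genes of the 10 had gaps of this size too. Npy replicate 2 was lower than replicate 1 by 1.05 for Nefl (3380 bases), 1.04 for Nefm (5782 bases) and 0.57 for Stmn2 (5602 bases) on this scale, against 0.91 for Map2 and 0.45 for Dcx. The median log2 difference, Pomc minus Npy, was 0.11 over the genes with over 8000 bases and -0.04 over those under 2500 bases. Over the genes between these lengths it was -0.001. The part of gene length in the values of Map2 and Dcx was not tested.

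Mapt, which encodes tau (chromosome 11, 104231390 to 104332090), was at 799, 436, 464 and 490 TPM in Pomc replicates 1 to 4, with Npy replicates 1 and 2 at 404 and 375 TPM. Pomc replicate 1 was far above the other Pomc libraries, which were themselves above both Npy libraries. The log2 difference was 0.44 ± 0.25 (SE, limma adjusted p = 0.783), and 0.25 without Pomc replicate 1. The share of Mapt in the sum of Map2 and Mapt was 54.3% in Pomc replicate 1, 34.3 to 36.5% in the other Pomc libraries and 29.9 and 42.7% in the Npy libraries. Pomc replicate 1 was thus the single library with more Mapt than Map2.

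Gap43 (chromosome 16, 42248442 to 42340651) had 2 levels within the Pomc group. It stood at 966 and 949 TPM in Pomc replicates 1 and 4, at 565 and 628 TPM in replicates 2 and 3, and at 626 and 533 TPM in Npy replicates 1 and 2. The groups overlapped, since Pomc replicate 2 was below Npy replicate 1. The log2 difference was 0.39 ± 0.26 (SE, limma adjusted p = 0.808, 95% interval -0.19 to 0.96). Basp1, Marcks and Marcksl1 encode membrane proteins of the growth cone that act beside Gap43. Gap43 made up 14.1 to 19.6% of the sum of these 4 genes in the Pomc libraries and 14.2 and 11.3% in the Npy libraries. Basp1 stood at 1305 ± 180 TPM (SD, n = 4) against 1405 and 1336 TPM, and Marcksl1 at 1786 ± 187 TPM against 1671 and 2095 TPM, with adjusted p of 0.949 and 0.955.

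The intermediate filament genes split into 1 abundant and 2 variable genes. Ina (chromosome 19, 47014698 to 47025327) was at 862, 593, 628 and 596 TPM in Pomc replicates 1 to 4, with Npy replicates 1 and 2 at 506 and 458 TPM. All Pomc libraries were above both Npy libraries, with Pomc replicate 1 well above the rest. Its log2 difference was 0.46 ± 0.20 (SE, 95% interval 0.005 to 0.91, limma adjusted p = 0.672), and 0.33 without Pomc replicate 1. Of its exon sequence, 14.1% overlaps exons of Nt5c2 on the other strand, and the sources used here do not say how strand was used in counting.

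Nefl encodes the light neurofilament chain (chromosome 14, 68083863 to 68089095). It stood at 211, 30.6, 89.7 and 101 TPM in Pomc replicates 1 to 4 and at 68.8 and 32.6 TPM in Npy replicates 1 and 2. Nefm encodes the medium chain (chromosome 14, 68082590 to 68124846) and stood at 81.3, 25.9, 71.3 and 121 TPM against 57.5 and 27.5 TPM. In both genes 3 Pomc libraries were above both Npy libraries and Pomc replicate 2 was below both. The log2 differences of 0.87 ± 0.63 for Nefl and 0.70 ± 0.55 for Nefm (SE, limma adjusted p = 0.827 and 0.839) carry the widest intervals of the 10 genes, from 0.684-fold to 4.89-fold and from 0.690-fold to 3.84-fold. Without Npy replicate 1 they were 1.40 and 1.22, without Npy replicate 2 0.34 and 0.18, and without Pomc replicate 2 1.37 and 1.14. The estimate for Nefl was 0.45 without Pomc replicate 1, and that for Nefm 0.41 without Pomc replicate 4. Their coefficients of variation over the Pomc libraries were 69.6 and 52.2%, against 7.08 to 30.9% for the other 8 genes.

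Nefl and Nefm are neighbours on opposite strands, and 1108 bases of annotated exon sequence belong to both, 32.8% of the exon sequence of Nefl and 19.2% of that of Nefm. Their values therefore may share reads. The part of shared reads in their levels was not tested. Their ratio (Nefl to Nefm) was 2.59 in Pomc replicate 1, 1.19 and 1.26 in replicates 2 and 3, 0.831 in replicate 4 and 1.20 and 1.19 in the Npy libraries. Ina made up most of the neuronal filament total in every library, 71.7 to 89.9% in Pomc and 78.3 and 86.2% in Npy neurons. Nefh, the heavy chain of mature axons, stood at 17.4 ± 7.06 TPM (SD, n = 4) against 14.3 and 13.0 TPM (limma adjusted p = 0.934).

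**Figure D3:**
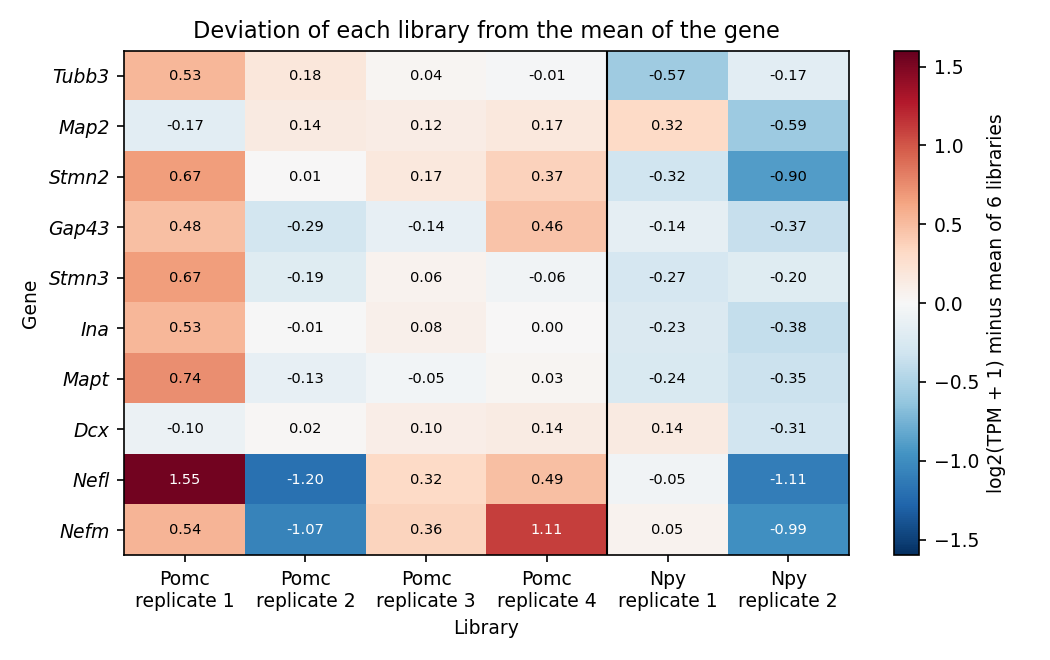
Deviation of each library from the mean of the gene over the 6 libraries, on the scale log2(TPM + 1), with genes in rows and libraries in columns. Pomc replicate 1 is the highest Pomc library in 7 of 10 genes and Pomc replicate 2 the lowest in 7, and Npy replicate 2 is the lower Npy library in 8 of 10.

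The same libraries were high or low in many of the 10 genes. Pomc replicate 1 had the highest value of the Pomc group in 7 genes (Tubb3, Stmn2, Stmn3, Mapt, Gap43, Nefl and Ina) and the lowest in 2 (Dcx and Map2). Pomc replicate 2 had the lowest value in 7 genes. Without Pomc replicate 1 all 10 log2 differences were above 0, from 0.17 for Stmn3 to 0.79 for Stmn2 among the 5 genes whose groups did not overlap. Npy replicate 2 was below replicate 1 in 8 genes, with Tubb3 and Stmn3 as the exceptions. Without Npy replicate 2 the log2 differences of 8 of 10 genes were above 0, and without any other 1 of the 6 libraries all 10 were. Among all genes tested, 43.3% were above 0 without Npy replicate 2. That share was 49.6 to 55.3% without any other 1 of the 6 libraries.

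**Figure D4:**
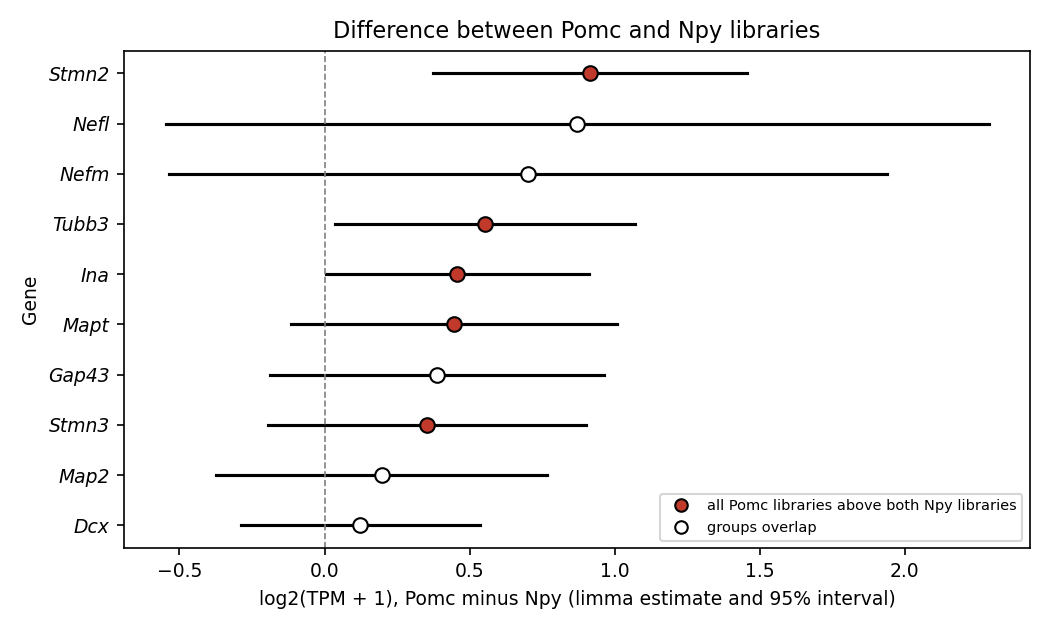
Limma estimate of the difference in log2(TPM + 1), Pomc minus Npy, with its 95% interval for each of the 10 genes. Red marks the 5 genes in which all 4 Pomc libraries lie above both Npy libraries, and the intervals of Stmn2, Tubb3 and Ina lie above 0 before any adjustment; without Npy replicate 2 the estimates of Map2 and Dcx are below 0.

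Beside these 10 genes, 142 genes of the cytoskeleton and growth cone were listed in 11 groups, of which 138 are in the table and 134 were tested. None of the 134 passed over all genes by limma, and 18 had an unadjusted p under 0.05, or 13.4% where all genes gave 7.36%. By group these were 2 of 22 microtubule-associated genes, 2 of 4 intermediate filament genes and 2 of 16 growth cone genes. Among actin genes they were 3 of 16, among motors 2 of 23, and among spectrins and their relatives 3 of 8. The severing, folding and modification genes gave 4 of 18, and the remaining groups 0. Of the 134, 85 had log2 differences above 0 (63.4%), with a median of 0.18 against 0.02 for all genes. The medians of the 11 groups ran from -0.12 for the other stathmin and doublecortin family genes (5 tested) to 0.54 for the alpha tubulins (5 tested). The latter is the value of Tuba4a, a gene near the filter (0.03 to 8.33 TPM in Pomc neurons, 3.49 and 0 TPM in Npy neurons), whereas the abundant Tuba1a was at 0.27.

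The 22 tested genes of other microtubule-associated and end-binding proteins had a median of 0.20. The most abundant was Map1b, a protein of growing axons, at 2503, 2002, 2434 and 2791 TPM in the Pomc libraries against 1836 and 732 TPM. The log2 difference was 1.06 ± 0.34 (SE, limma adjusted p = 0.442). Leaving out Npy replicate 1 gave 1.72 and a limma adjusted p of 0.047, but the Npy group is then Npy replicate 2 alone and its spread is taken from the Pomc libraries. Map6, which makes microtubules resistant to cold, stood at 239.7 to 263.8 TPM in the Pomc libraries against 240.1 and 244.5 TPM, and Map7d1 at 327 ± 16.3 TPM (SD, n = 4) against 293 and 364 TPM, with adjusted p of 0.966 and 0.999. The coefficient of variation over the Pomc libraries was 4.45% for Map6, below that of each of the 10 genes above (7.08% or more).

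Among 16 tested growth cone and collapsin response mediator genes the median was 0.19. Dpysl2, a mediator of semaphorin signals in the growth cone, stood at 1092 ± 160 TPM (SD, n = 4) against 765 and 921 TPM (log2 difference 0.37 ± 0.20, limma adjusted p = 0.773). Its relatives Dpysl3 and Dpysl5 were the 2 of the 16 with an unadjusted p under 0.05 (12.5%, against 7.36% of all genes). They stood at 1052 ± 156 and 415 ± 39.4 TPM against 724 and 672 TPM and 314 and 315 TPM (log2 differences 0.58 ± 0.19 and 0.39 ± 0.17, adjusted p = 0.475 and 0.65). Of 16 actin genes and regulators 14 were above 0 (87.5%, against 51.3% of all genes), with a median of 0.23. An unadjusted p under 0.05 was found for 3 (18.8%, against 7.36% of all genes). Of these, Dstn and Fscn1 were higher and Dbn1 was lower in Pomc neurons. Dbn1 stood at 1147 ± 54.7 TPM against 1360 and 1732 TPM (log2 difference -0.42 ± 0.19, adjusted p = 0.675 by limma). Actb stood at 4731 ± 456 TPM against 3918 and 4842 TPM, Actg1 at 3220 ± 412 TPM against 2318 and 2603 TPM, and Cfl1, the actin-severing protein cofilin, at 1385 ± 186 TPM against 1073 and 1178 TPM. Their adjusted p were 0.943, 0.792 and 0.813, so that none of these abundant actin genes passed. The spectrins, ankyrins and adducins, which line the axonal membrane, had a median of 0.23 over 8 tested genes. Sptan1, Sptbn1 and Ank2 had an unadjusted p under 0.05 (37.5%, against 7.36% of all genes). Sptan1 stood at 625 ± 40.9 TPM against 498 and 417 TPM (log2 difference 0.45 ± 0.17, adjusted p = 0.564), and Sptbn1 at 438 ± 18.0 TPM against 369 and 286 TPM. Add1 stood at 292 ± 36.1 TPM against 246 and 264 TPM.

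Motor proteins, which carry cargo along microtubules, had a median of 0.14 over 23 tested genes. Kif5c and Klc1, a heavy and a light chain of kinesin, stood at 773 ± 50.8 and 638 ± 41.5 TPM (SD, n = 4) against 856 and 685 TPM and 608 and 607 TPM, with log2 differences of 0.01 ± 0.18 and 0.07 ± 0.16 (limma adjusted p = 0.992 and 0.948). Dync1h1, the heavy chain of dynein, stood at 488 ± 47.2 TPM against 376 and 357 TPM (0.41 ± 0.17, adjusted p = 0.616). Kinases that phosphorylate tau and its relatives had a median of -0.09 over 12 tested genes. Cdk5r1, the activator of the neuronal kinase Cdk5, stood at 270 ± 33.4 TPM against 299 and 415 TPM, Gsk3b at 223 ± 24.4 TPM against 187 and 182 TPM, and Mark3 at 141 ± 28.8 TPM against 147 and 116 TPM.

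Some genes of the cytoskeleton were lower in Pomc neurons without passing. Over 18 tested genes of microtubule severing, tubulin folding and modification the median was -0.06, and 11 were below 0. The other 7 made up 38.9%, where 51.3% of all genes were above 0. Fign, Tbca and Tbce, lower in Pomc neurons, and Vash1, higher, had an unadjusted p under 0.05 (22.2%, against 7.36% of all genes). Fign stood at 2.57 to 8.29 TPM against 23.1 and 13.5 TPM (log2 difference -1.71 ± 0.61, limma adjusted p = 0.556). Tbce stood at 38.9 to 80.2 TPM against 100 and 92.8 TPM (-0.74 ± 0.32, limma adjusted p = 0.657). Tbca, a chaperone that receives beta tubulin, stood at 427, 464, 449 and 513 TPM in the Pomc libraries against 671 and 799 TPM. Every Pomc library was below both Npy libraries (log2 difference -0.66 ± 0.17, limma adjusted p = 0.267), as was the case in 7.86% of all genes tested. The severing protein spastin (Spast) stood at 158 ± 16.8 TPM (SD, n = 4) against 161 and 165 TPM, and the tubulin acetylase Atat1 at 205 ± 13.3 TPM against 195 and 232 TPM. Nes, which encodes the intermediate filament nestin of neural progenitors, stood at 14.6, 21.3, 16.5 and 26.4 TPM against 49.0 and 40.0 TPM (log2 difference -1.16 ± 0.36, adjusted p = 0.418). It lay in the direction of the radial glia and dividing cell markers. Vim, the vimentin of progenitors and glia, lay in the other direction, at 299, 201, 254 and 530 TPM against 206 and 155 TPM (0.75 ± 0.34, adjusted p = 0.696), and its groups overlapped.

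**Figure D5:**
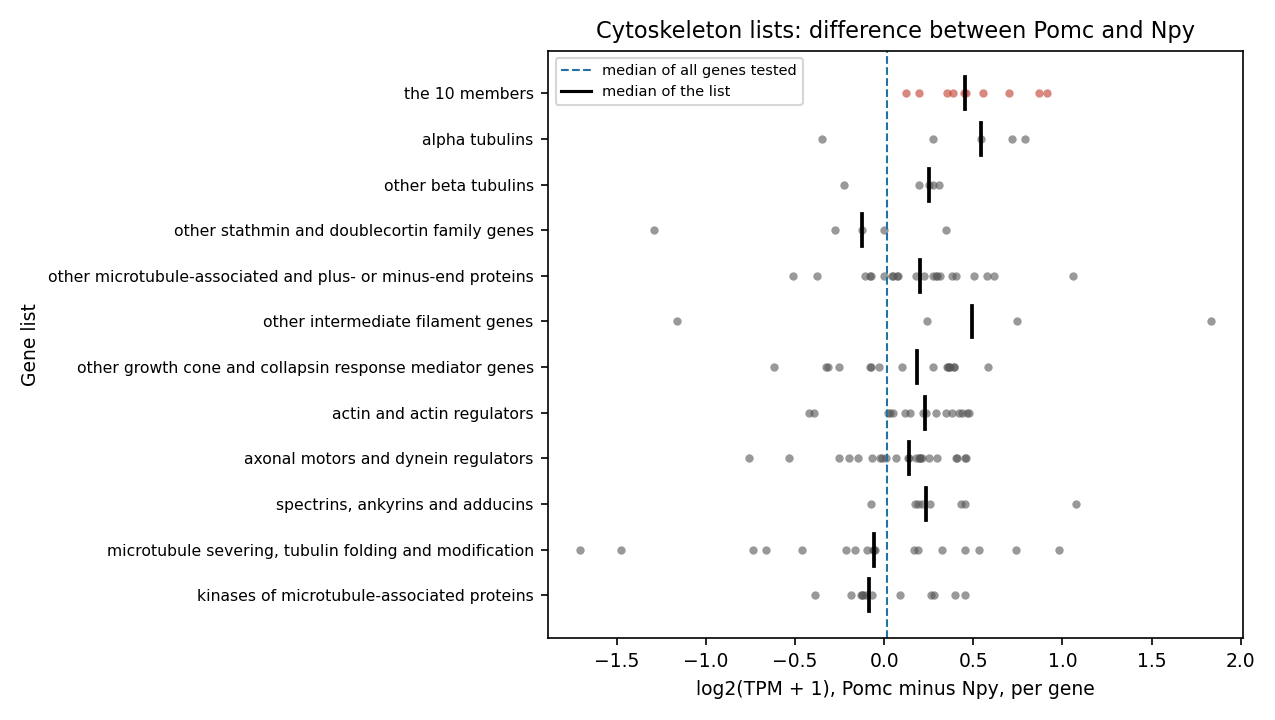
Difference in log2(TPM + 1), Pomc minus Npy, of each tested gene (points) in the 10-gene set and in 11 related lists, with the median of each list (bars) and of all genes tested (dashed line). The 10 genes have a median of 0.45, the related lists have medians from -0.12 to 0.54, and no gene shown passed the threshold over all genes.

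The intervals give the precision of each estimate before adjustment over all genes. An interval above 0, as for Stmn2, was not enough to pass. The 95% interval reached 0.41 to either side of the estimate for Dcx, the narrowest, and 1.42 for Nefl, the widest, on the log2 scale.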

How the data were processed

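RNA was measured in sorted Pomc and Npy neurons of the arcuate nucleus at E15.5. Libraries were made from 1 ng of total RNA with a stranded total RNA kit, per the labels' protocols. The submitters' processing notes name HISAT2, edgeR 3.8 and mm10, and leave their use unstated. The sources used here do not name the counting tool, annotation, length definition or use of strand. The authors deposited 1 table, whose values were taken as TPM made from their reads, since the file header names no unit and 6 of 7 columns sum to 1000000. TPM keep no read depth. The column of Npy replicate 3 (sum 996136) was left out. Its relation to the other Npy columns was met by at most 0.0165% of genes in 102 other sets of 3 columns.

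Rows of 2 repeated symbols (4 rows) were left out. Genes with at least 1 TPM in at least 2 of 6 libraries (13845) were tested with limma 3.58.1 (R 4.3.3) on log2(TPM + 1) with its mean-variance trend, two-sided, with Benjamini-Hochberg adjustment over all of them. Fold changes are on this scale, which understates changes of low genes. Shares within families were compared by exact permutation tests. The fit was tested on simulated data. The 10 genes, the lists and the alternatives were chosen with earlier results of these data known. Named genes were the 10 genes, the sort markers, the genes of the shares and, from each related list, genes that passed and the 3 with the highest mean TPM. Genes named beyond this rule (Dpysl3, Dpysl5, Dstn, Fscn1, Dbn1, Ank2, Tuba4a, Fign, Tbce, Vash1, Synm, P2ry12 and other markers) were chosen after their values were seen. The alternatives were another pseudocount, filters, scalings by trimmed mean of M-values (TMM), by median ratios, without short RNA genes and to 7 neuron markers, 1 prior variance, all 7 columns, a replicate block and leaving out each library. Coordinates are from GENCODE M21 (GRCm38, the same assembly as mm10).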

Additional observations from a re-analysis of the deposited data

Results flagged for a closer look

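For 66 genes, shares and totals, the gap between the highest or lowest of the 4 Pomc libraries and its nearest neighbour was divided by their whole range. In 8 of them 1 library stood apart by this measure, and chance gives about 1 in 20. In 7 of the 8 that library was Pomc replicate 1. Mapt was at 799 TPM there and at 436 to 490 TPM in the remaining 3, and Ina at 862 TPM against 593 to 628 TPM. Tuba1a was at 4390 TPM against 3057 to 3244 TPM, Tubb2b at 2212 TPM against 1312 to 1465 TPM, and the beta tubulin total at 9637 TPM against 6172 to 6677 TPM. The share of Mapt in Map2 and Mapt was 54.3% against 34.3 to 36.5%, and the ratio of Map2 to Mapt, which repeats the same comparison, was 0.842 against 1.74 to 1.92. The eighth was Basp1, low in Pomc replicate 2 at 1037 TPM against 1370 to 1419 TPM. These measures share libraries and genes, so that they are not independent.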

How the results depend on the processing

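None of the 10 genes passed in any of 16 other settings (lowest adjusted p 0.0591, Stmn2 with all 7 columns, which rest on 2 Npy measurements). Of 160 log2 differences under these settings, 158 kept their sign; without Npy replicate 2, Dcx was at -0.103 and Map2 at -0.257, against 0.349 and 0.651 without Npy replicate 1, and the cause was not tested. The unadjusted count of 3 was 1 in 10 settings (no filter, each of the 4 other scalings, no variance trend, the replicate block, and leaving out Pomc replicate 1, Pomc replicate 3 or Npy replicate 2). Of the related genes 1 passed with all 7 columns (Tbca, adjusted p 0.0417), and 0 to 2 with a library left out (Ank2 and Map1b without Npy replicate 1). Over all genes the count of 57 was 37 with a pseudocount of 0.1, 33 with no filter, 205 with all 7 columns and 22 to 69 with a library left out (31, 36 and 29 without Pomc replicate 1, 2 or 3 and 22 without Npy replicate 2). With a replicate block it was 12. By direction, 40 genes were higher in Pomc (20 to 68 with a library left out, 110 with all 7 columns, 10 with the block) and 17 in Npy neurons (1 to 19, 95 and 2). Equal replicate numbers are tied by no label. Their deviations from the group means did not run together (r = -0.044 for number 1 and -0.033 for number 2). With 2 Npy libraries the deviations of Npy replicate 2 mirror those of replicate 1, so r against either differs only in sign. The block left 0 of the 10 genes called. Its difference rests on replicates 1 and 2 alone, since Pomc replicates 3 and 4 have no Npy partner, so few genes could pass in it. The difference in the share of Stmn2 (Pomc minus Npy) ranged from 4.24 to 7.33 percentage points with a library left out, while those in the shares of Dcx (-1.85 to 2.03), Mapt (-2.39 to 10.4) and Nefm (-0.509 to 3.35) changed sign. Scaling to neuron markers was chosen after seeing the data. TPM leave the depth unknown, and 2 Npy libraries limit every comparison.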
